A study of Homo sapiens with 8 samples.

Results

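The 10 integrin subunits of squamous epithelium were examined in SCC25 cells, a line long established from a head and neck squamous cell carcinoma (HNSCC), after loss of the transcription factor ETS1. The subunits were ITGA2, ITGA3, ITGA5, ITGA6, ITGAV, ITGB1, ITGB4, ITGB5, ITGB6 and ITGB8, chosen by name as rows present in both count tables, and they were 10 of 26 integrin subunits looked up and 10 of 56638 genes in the tables. All 10 had enough reads to be tested in every comparison. The data were counts of RNA-seq reads per gene in 8 libraries, 2 in each of 4 groups, all from SCC25 cells grown with serum and hydrocortisone. The siRNA control cells received non-targeting siRNAs and the ETS1 siRNA cells a siGENOME pool against ETS1, both with Lipofectamine RNAiMAX. The shCON cells carried a stable lentiviral non-targeting hairpin and the shETS1 cells a stable lentiviral hairpin against ETS1, both under puromycin, and 1 hairpin, shETS1_3, is named for both shETS1 libraries. Hours between transfection and harvest were not given in the sources used here. The methods call the siRNA samples biological replicates and the labels name no separate cultures, so that the p-values measure only the spread between these samples, which may be technical.

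Integrins are receptors made of an alpha and a beta chain that span the cell membrane, bind proteins of the surrounding matrix and link them to the cytoskeleton. Which matrix protein is bound depends on the pair. In squamous epithelium, ITGA6 with ITGB4 holds basal cells to laminin at hemidesmosomes, ITGA3 with ITGB1 binds laminin at focal contacts, ITGA2 with ITGB1 binds collagen, ITGA5 with ITGB1 binds fibronectin, and ITGAV pairs with ITGB5, ITGB6 or ITGB8 to bind vitronectin or the latent form of TGF-beta. ETS1 is a DNA-binding protein that recognizes a GGAA core.

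Because ETS1 binds such a core, the letters around the start sites of the members were read from RefSeq promoters of the GRCh38.p14 build, each 300 bases long. The table held 13 promoters of 8 members, and ITGA3 and ITGB4 were not in it. Both strands were searched for GGAA, for the longer ETS-type sequence CCGGAAGT, which always contains a GGAA, and for the AP-1-type sequence TGANTCA. The promoters shown are that of the member with the largest fall after the stable hairpin (ITGA2), the single promoter with most GGAA copies (ITGA5), the promoter with the one CCGGAAGT match (ITGB5) and that of the member with the largest rise after the stable hairpin (ITGB8). They lie at chr5:52989102-52989401 on the plus strand (ITGA2), chr12:54419217-54419516 on the minus strand (ITGA5), chr3:124901369-124901668 on the minus strand (ITGB5) and chr7:20330650-20330949 on the plus strand (ITGB8), and capitals mark every match to the searched sequences on either strand.
ITGA2: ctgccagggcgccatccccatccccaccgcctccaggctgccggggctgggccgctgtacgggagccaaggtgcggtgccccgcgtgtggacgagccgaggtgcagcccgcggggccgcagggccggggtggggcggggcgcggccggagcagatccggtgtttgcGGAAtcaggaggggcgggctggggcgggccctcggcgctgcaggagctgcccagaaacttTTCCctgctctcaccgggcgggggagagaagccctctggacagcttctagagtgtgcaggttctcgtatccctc
ITGA5: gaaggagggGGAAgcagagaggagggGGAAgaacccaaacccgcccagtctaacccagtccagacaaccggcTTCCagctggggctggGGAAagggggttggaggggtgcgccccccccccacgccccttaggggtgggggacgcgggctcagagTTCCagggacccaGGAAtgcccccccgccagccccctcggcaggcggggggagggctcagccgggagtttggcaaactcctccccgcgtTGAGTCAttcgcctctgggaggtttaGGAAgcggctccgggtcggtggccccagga
ITGB5: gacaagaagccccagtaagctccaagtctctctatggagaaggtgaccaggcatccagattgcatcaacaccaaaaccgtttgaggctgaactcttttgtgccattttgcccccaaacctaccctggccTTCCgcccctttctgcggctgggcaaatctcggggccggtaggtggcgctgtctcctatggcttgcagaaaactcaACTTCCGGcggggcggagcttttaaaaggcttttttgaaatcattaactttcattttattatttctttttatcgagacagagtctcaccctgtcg
ITGB8: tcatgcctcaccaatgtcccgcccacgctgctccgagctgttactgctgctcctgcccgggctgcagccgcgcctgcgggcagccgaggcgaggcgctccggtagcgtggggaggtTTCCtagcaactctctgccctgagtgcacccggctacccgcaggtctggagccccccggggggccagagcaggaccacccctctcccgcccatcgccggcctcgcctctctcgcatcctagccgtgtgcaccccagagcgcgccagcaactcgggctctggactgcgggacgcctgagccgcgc

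GGAA stood in 12 of the 13 member promoters with 36 copies in all, beside 95.5% of all 35116 promoters of that length and a median of 3 copies. The ITGA5 promoter held 7 copies of GGAA and 1 TGANTCA match, the ITGA2 promoter 2 copies of GGAA and the ITGB8 promoter 1. The longer CCGGAAGT stood in 1 of 13 member promoters, that of the ITGB5 start printed here, and in 4.1% of all promoters. The other 2 ITGB5 starts in the table held GGAA without CCGGAAGT. TGANTCA stood in 1 of 13 member promoters and in 7.7% of all promoters. These matches describe letters. The ETS1 binding sites that the paper reports for SCC25 cells from ChIP-seq were not used here.

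Library totals ran from 15954616 to 25953213 counts. ETS1 itself fell in both experiments, from 288 and 248 CPM (the standard unit of counts scaled to a common library size) to 17.4 and 13.2 after siRNA (log2 fold change -4.13, SE 0.19, edgeR adjusted p 0.000173), and from 82.2 and 72 to 9.75 and 11 CPM after the hairpin (-2.89, SE 0.10, adjusted p 3.82e-13). Of all counts, RNAs such as RN7SK that lack a poly(A) tail made up at most 0.00339% in the siRNA libraries, and their share went from 5.61% and 6.63% in shCON to 12.3% and 9.64% in shETS1. The 8 squamous epithelial markers, among them KRT5, KRT14, CDH1 and TP63, were detected in all libraries, with summed levels of 15600 and 20300 CPM in siRNA control and 15000 and 15100 CPM in shCON, and of 27100 and 23400 CPM in ETS1 siRNA and 24400 and 24100 CPM in shETS1. The higher sums lay mostly in keratins such as KRT5 and KRT14. Other markers did not follow after the hairpin. Their mean levels in shCON and shETS1 were 621 and 471 CPM for TP63, 116 and 76.3 CPM for EPCAM, 475 and 422 CPM for SFN and 191 and 192 CPM for CDH1. Between siRNA control and ETS1 siRNA the means were 92.2 and 63.7 CPM for EPCAM, 574 and 534 CPM for TP63 and 333 and 340 CPM for CDH1. There SFN was higher after knockdown, at 1260 and 1670 CPM. Summed levels of 5 fibroblast markers were 23.1 to 31.4 CPM in the siRNA libraries, 231 and 260 in shCON, and 2040 and 1940 in shETS1. That rise lay in LUM (160 and 183 to 1360 and 1290 CPM) and DCN (63.8 and 71.6 to 677 and 644 CPM). COL6A3 had means of 6.41 CPM in shCON and 8.46 CPM in shETS1. THY1 had at most 4 counts and PDGFRB at most 9 counts in any shRNA library. Of 4 endothelial markers PECAM1 had 0 counts in every library, and KDR was at 1.83 and 1.69 CPM in shCON and 23.9 and 23.8 in shETS1. The other endothelial markers did not rise with KDR. VWF had 5 and 7 counts in shCON and 2 and 2 in shETS1, and CDH5 had 0 counts in every shRNA library. The 4 immune markers summed to at most 4 CPM. What part these marker and library differences had in the integrin values was not tested.

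The level of each subunit was first compared within the cells, as scaled reads per kilobase of all annotated exons (RPKM). In siRNA control, the most abundant were ITGB1, the beta chain that most alpha chains share, at 193 ± 18.4 RPKM (SD, n = 2), ITGA5 at 157 ± 9.47 and ITGA6 at 149 ± 3.80. ITGB6, ITGB4 and ITGA3 followed with mean levels of 82.8, 72.7 and 68.3 RPKM. ITGA2 (33.2 RPKM), ITGB5 (23.1 RPKM) and ITGAV (14.8 RPKM) were lower, and ITGB8 was lowest at 0.595 ± 0.00407 RPKM. The replicates of ITGA5 overlapped those of ITGA6, and those of ITGB6 overlapped those of ITGB4. All other neighbors in this order did not overlap.

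In shCON the order was led by ITGA6 at 185 ± 1.72 RPKM (SD, n = 2) and ITGB1 at 158 ± 4.79 RPKM. ITGB4 (39.1 RPKM), ITGA5 (36.1 RPKM), ITGB6 (33.9 RPKM) and ITGA3 (32.5 RPKM) formed a run in which each overlapped the next. ITGB5, ITGAV, ITGA2 and ITGB8 ended the order at 16.7, 15.4, 12.3 and 11.1 RPKM. In shETS1, ITGA6 led at 218 ± 7.72 RPKM, above ITGB1 at 151 ± 2.54 RPKM, ITGB8 stood seventh at 15.7 RPKM, above ITGAV at 14.7 RPKM, and ITGA2 was last at 3.92 ± 0.240 RPKM. In ETS1 siRNA, ITGA5 led at 207 ± 5.48 RPKM, above ITGB1 at 188 ± 16.3 RPKM, and ITGB8 was again last at 0.766 RPKM. With the longest transcript as the length ITGB1 was first in all 4 groups. Its levels were then 501 RPKM in siRNA control, 410 in shCON, 488 in ETS1 siRNA and 392 in shETS1. With that length ITGAV (35.7 RPKM) stood above ITGB8 (26.5 RPKM) in shETS1. In shCON ITGA2 (12.4 RPKM) was then last, below ITGB8 (18.7 RPKM). The order therefore depends on the length used, at its top and lower down.

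**Figure D1:**
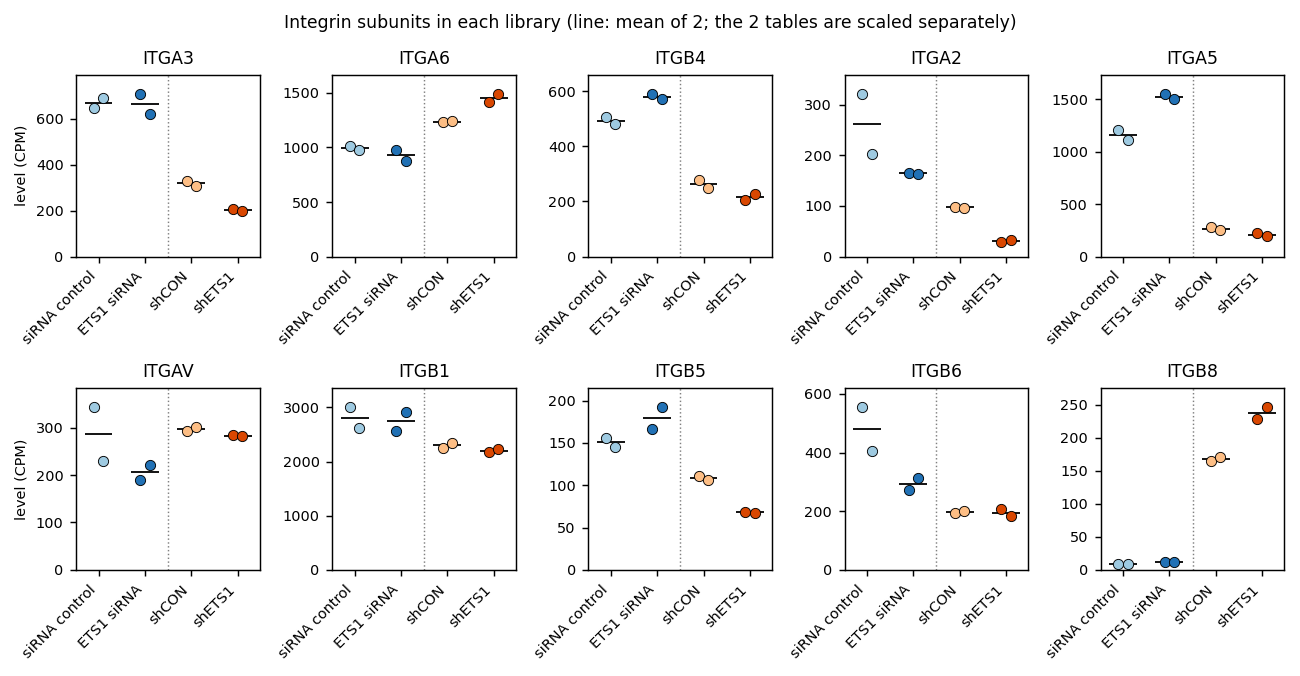
Levels of the 10 subunits in CPM (vertical axis, from 0) in each of the 8 libraries, with points for libraries and a line for the mean of 2, and a dotted line between the separately scaled tables. ITGA2 sits at 98.7 and 95.1 CPM in shCON and at 29.6 and 32.3 in shETS1, and ITGB8 sits below 12 CPM in every siRNA library and at 165 CPM or above in every shRNA library.

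Both control groups were SCC25 cells, but the tables may differ in preparation, which the labels do not give. Mitochondrial genes made up 0% of counts in every siRNA library and 0.508% to 0.82% in the shRNA libraries. A difference between the control groups therefore cannot be told apart from the type of experiment. ITGB8 differed most among the members, with 9.06 and 8.97 CPM in siRNA control (180 and 144 counts) and 165 and 171 CPM in shCON (4144 and 4444 counts), a 17.7-fold higher level in shCON once 0.5 CPM is added to each value. Its absolute log2 difference exceeded that of 99.7% of 14038 genes. ITGA5 lay the other way, at 1210 and 1110 CPM in siRNA control and 279 and 254 CPM in shCON, 4.35-fold higher in siRNA control on the same scale and a larger difference than that of 96.8% of genes. ITGAV was close in both, at 286 and 297 CPM on average.

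The short-term comparison asked how the subunits stood after siRNA against ETS1. ITGB6, the beta chain of an epithelial receptor for latent TGF-beta, was the 1 member of 10 called at an adjusted p under 0.1, and it was lower. Over all 14742 genes tested, 3.41% were called, 1.13% higher and 2.27% lower. Of the members, 5 had an unadjusted p under 0.05 in edgeR. No share of all genes at that p is given here, so that this count has no background to be set against. The median log2 fold change of the 10 members was -0.02, beside 0.0018 over all genes. Groups did not overlap in CPM for 7 of the 10 members, beside 51.9% of all genes.

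The long-term comparison asked the same after the stable hairpin. Here 7 of 10 members were called. ITGA2, ITGA3, ITGA5, ITGB4 and ITGB5 fell and ITGA6 and ITGB8 rose. Over all 16481 genes tested 60.6% were called, 29.7% higher and 30.9% lower. The median of the members was -0.18, beside 0.00066 over all genes. Groups did not overlap for 9 of 10 members, beside 76.6% of all genes. Scaling by library size only moved the median of all genes to -0.12 and that of the members to -0.30, and the calls over all genes from 4900 higher and 5088 lower to 3624 and 6269. With that scaling 8 members were called, 1 higher and 7 lower. In bulk RNA, fewer cells that express a gene and less of its RNA per cell cannot be told apart.

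**Figure D2:**
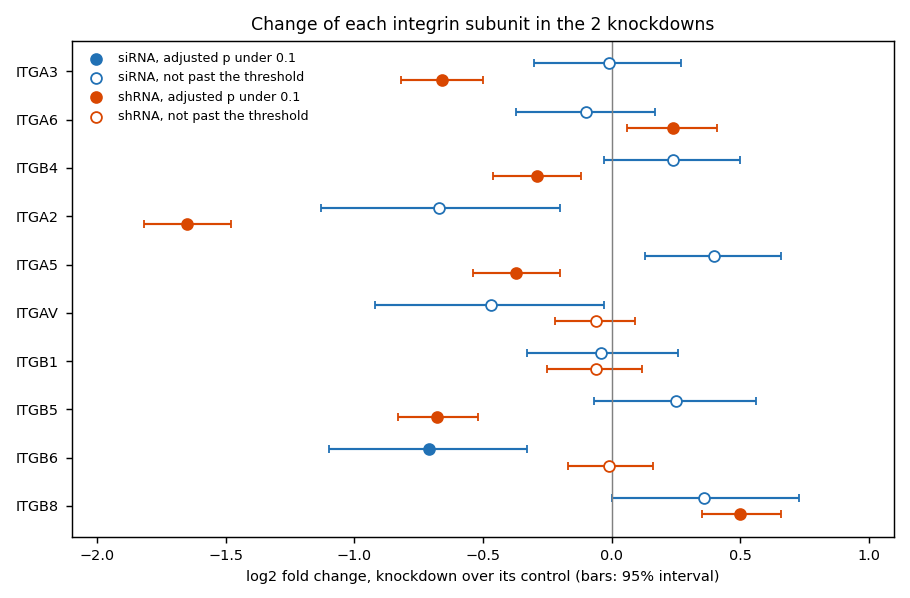
Log2 fold change of each subunit (horizontal axis, knockdown over its own control) after siRNA (blue) and after shRNA (orange), with 95% intervals from the edgeR fit and filled points past an adjusted p of 0.1. The siRNA intervals are wider, and ITGA2 after shRNA stands farthest from 0 at -1.65.

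Laminin receptors were described first. ITGA6, the alpha chain shared by the hemidesmosome receptor and a focal-contact receptor, maps to chromosome 2 (173292082 to 173371187, plus strand, GRCh37). It was at 1230 and 1240 CPM in shCON and 1420 and 1490 CPM in shETS1. The shETS1 libraries were higher without overlap. ITGA6 rose by 0.24 on the log2 scale (SE 0.08, adjusted p 0.0236), and the call was lost with library size only (0.11, adjusted p 0.229) and without shCON replicate 1 (0.22, adjusted p 0.136). After siRNA it was at 1010 and 976 CPM in siRNA control and 980 and 876 CPM in ETS1 siRNA, which overlapped (-0.10, SE 0.12, adjusted p 0.702).

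ITGB4, the hemidesmosomal beta chain with a long cytoplasmic tail, maps to chromosome 17 (73717408 to 73753899, plus strand). It was at 278 and 250 CPM in shCON and 204 and 228 CPM in shETS1. The groups did not overlap, and ITGB4 fell by 0.29 on the log2 scale (SE 0.08, adjusted p 0.00541). After siRNA its level was 505 and 479 CPM in siRNA control and 589 and 571 CPM in ETS1 siRNA. Those groups did not overlap either, with the knockdown higher, but the change was not past the threshold (0.24, SE 0.12, adjusted p 0.318). ITGA6 and ITGB4 pair with each other in the hemidesmosome, and after the hairpin the read counts of ITGA6 over ITGB4 moved apart, from log2 ratios of 2.14 and 2.31 in shCON to 2.79 and 2.71 in shETS1. In the siRNA libraries this ratio was 1 and 1.03 in control and 0.74 and 0.62 after knockdown.

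ITGA3, the alpha chain of the focal-contact laminin receptor, maps to chromosome 17 (48133332 to 48167845, plus strand). It was at 330 and 307 CPM in shCON and 205 and 199 CPM in shETS1, groups that did not overlap. ITGA3 fell by 0.66 on the log2 scale (SE 0.07, adjusted p 9.73e-07). After siRNA it was at 647 and 691 CPM in control and 707 and 621 CPM in knockdown, and the groups overlapped (-0.01, SE 0.12, 95% interval -0.30 to 0.27). The log2 ratio of ITGA6 over ITGA3 counts was 1.89 and 2.02 in shCON and 2.79 and 2.91 in shETS1, and lay between 0.47 and 0.65 in all siRNA libraries.

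The collagen receptor chain ITGA2, on chromosome 5 (52285170 to 52390609, plus strand), showed the largest change of the members. It was at 98.7 and 95.1 CPM in shCON and 29.6 and 32.3 CPM in shETS1, with every shETS1 library below every shCON library. ITGA2 fell by 1.65 on the log2 scale (SE 0.08, adjusted p 2.5e-11), a 3.13-fold lower level, and a larger absolute change than that of 94.9% of genes tested. With siRNA it was at 321 and 203 CPM in control and 166 and 164 CPM in knockdown, also without overlap. That change was not past the threshold (-0.67, SE 0.20, adjusted p 0.153) and depended on the controls. It was -0.30 (adjusted p 0.885) without siRNA control replicate 1 and -0.96 (adjusted p 0.0222) without siRNA control replicate 2. DESeq2 called it (-0.67, adjusted p 0.0221).

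The fibronectin receptor chain ITGA5, on chromosome 12 (54789045 to 54813050, minus strand), fell after the hairpin and had a higher mean after siRNA that did not pass the threshold. After the hairpin it was at 279 and 254 CPM in shCON and 220 and 194 CPM in shETS1, and fell by 0.37 on the log2 scale (SE 0.08, adjusted p 0.000971). After siRNA it was at 1210 and 1110 CPM in control and 1550 and 1500 CPM in knockdown. Those groups did not overlap, with the knockdown higher, and the value of 0.40 (SE 0.12, adjusted p 0.142) was not past the threshold in edgeR but was in DESeq2 (adjusted p 0.065). Read counts of ITGA5 over ITGA2 were higher after either knockdown, with log2 ratios that went from 1.91 and 2.45 to 3.23 and 3.19 after siRNA and from 1.5 and 1.41 to 2.89 and 2.59 after shRNA.

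ITGB1, which pairs with ITGA2, ITGA3, ITGA5 and ITGA6 among others, maps to chromosome 10 (33176201 to 33294720, minus strand). It was at 2250 and 2350 CPM in shCON and 2170 and 2230 CPM in shETS1, a change not past the threshold (-0.06, SE 0.09, 95% interval -0.25 to 0.12). Its siRNA values were 3000 and 2620 CPM in control and 2570 and 2910 CPM in knockdown, which overlapped (-0.04, SE 0.13, 95% interval -0.33 to 0.26). With library size only it was called after shRNA (-0.19, adjusted p 0.0524), beside a median of all genes of -0.12.

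ITGAV, the alpha chain shared by the receptors for vitronectin and latent TGF-beta, maps to chromosome 2 (187454737 to 187545628, plus strand). It was at 293 and 301 CPM in shCON and 284 and 283 CPM in shETS1 (-0.06, SE 0.07, 95% interval -0.22 to 0.09). With library size only this was called (-0.19, adjusted p 0.0292). In the siRNA libraries ITGAV was at 343 and 229 CPM in control and 190 and 222 CPM in knockdown. The groups did not overlap, and the value of -0.47 (SE 0.19, adjusted p 0.248) was -0.16 without siRNA control replicate 1 and -0.73, then called (adjusted p 0.0889), without siRNA control replicate 2.

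Among the beta chains that join ITGAV, ITGB5, a vitronectin receptor chain on chromosome 3 (124480795 to 124620265, minus strand), fell after the hairpin. It was at 111 and 106 CPM in shCON and 68.2 and 67.7 CPM in shETS1, with no overlap (-0.68, SE 0.07, adjusted p 4.97e-07). After siRNA the level was 156 and 145 CPM in control and 166 and 192 CPM in knockdown, higher without overlap but not past the threshold (0.25, SE 0.14, adjusted p 0.372), and 0.13 without ETS1 siRNA replicate 2. The log2 ratio of ITGB5 over ITGAV counts was -1.40 and -1.50 in shCON and -2.06 and -2.07 in shETS1, and -1.13 and -0.66 in siRNA control against -0.20 and -0.21 in ETS1 siRNA.

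ITGB6, restricted to epithelia, maps to chromosome 2 (160956178 to 161056824, minus strand), and 16.7% of its exon length is shared with the lncRNA ENSG00000285155 on the same strand, so that its count is uncertain. In the siRNA libraries it was at 554 and 404 CPM in control and 273 and 312 CPM in knockdown. Both knockdown libraries were below both controls (-0.71, SE 0.17, adjusted p 0.093). The call was lost without siRNA control replicate 1 (-0.47, adjusted p 0.715). It was also lost with the replicate number as a block (-0.70, adjusted p 0.246). In the shRNA libraries it was at 193 and 200 CPM in shCON and 208 and 183 CPM in shETS1, which overlapped (-0.01, SE 0.08, 95% interval -0.17 to 0.16).

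ITGB8, the third of these chains, maps to chromosome 7 (20370325 to 20455377, plus strand). It was at 165 and 171 CPM in shCON and 229 and 246 CPM in shETS1, and rose by 0.50 on the log2 scale (SE 0.07, adjusted p 1.66e-05). With siRNA it was at 9.06 and 8.97 CPM in control and 11.9 and 11.3 CPM in knockdown, from 144 to 230 counts a library, also higher without overlap but not past the threshold (0.36, SE 0.16, adjusted p 0.268). The log2 ratio of ITGB8 over ITGB6 counts went from -0.23 and -0.22 in shCON to 0.14 and 0.43 in shETS1. In the siRNA libraries it went from -5.94 and -5.49 to -4.52 and -4.78.

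**Figure D3:**
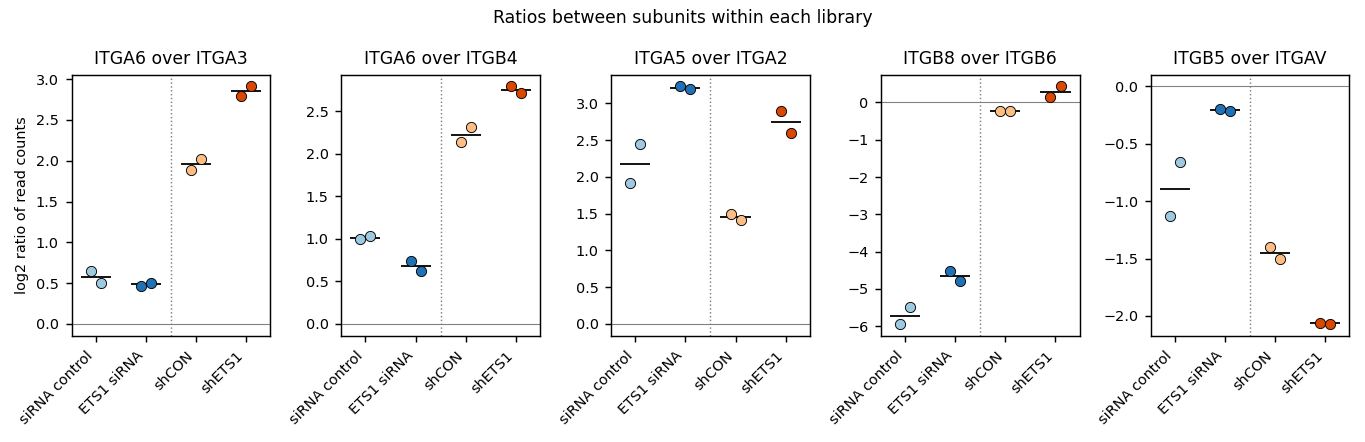
Log2 ratios of read counts between pairs of subunits (vertical axis) in each library, with points for libraries and lines for the mean of 2. ITGA6 over ITGA3 is higher in both shETS1 libraries (2.79 and 2.91) than in shCON (1.89 and 2.02), and ITGA5 over ITGA2 is higher in the knockdown libraries of both experiments.

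Shares of a chain among the other chains give the make-up of the set in each library and are not affected by scaling between libraries. They do depend on the length used, here that of all annotated exons. ITGA6 took 64.9% and 66.6% of the summed per-length level of the 5 alpha chains in shCON and 75.4% and 77.4% in shETS1. With the longest transcript as the length these were 56% and 57.7% in shCON and 66.8% and 69.1% in shETS1. Per length of all annotated exons, ITGA2 went from 4.42% and 4.31% to 1.33% and 1.42%. ITGA5 took, with siRNA, 37.3% and 37.2% of the alpha chains in control and 45.8% and 47.2% in knockdown. Shares among the partners of ITGAV were taken over ITGB5, ITGB6 and ITGB8 only, without ITGB1 or ITGB3. Of these chains, ITGB6 took 79.6% and 75.3% in siRNA control and 64.3% and 64.0% in ETS1 siRNA. The share of ITGB8 among them went from 17.7% and 18.2% in shCON to 24.6% and 27.9% in shETS1. The 10 members together took 0.691% to 0.781% of counts in the siRNA libraries, 0.545% and 0.552% in shCON, and 0.474% and 0.501% in shETS1. Those shares of all counts do depend on the other RNAs of a library, and after TMM scaling the members summed to 5224 and 5275 CPM in shCON and 5039 and 5149 CPM in shETS1.

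**Figure D4:**
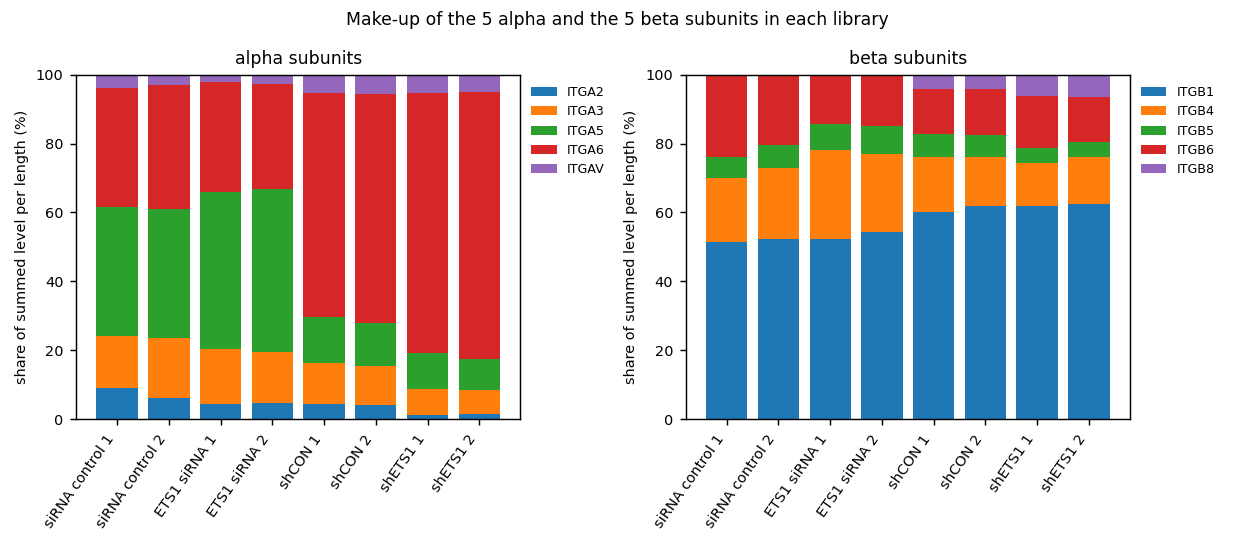
Share of each chain in the summed level per length of all annotated exons (vertical axis, percent), for the 5 alpha chains (left) and the 5 beta chains (right), 1 bar a library. ITGA6 takes 64.9% or more of the alpha chains in every shRNA library, and ITGB8 is visible in the shRNA bars alone.

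Whether the knockdowns differed was tested in one fit of the 8 libraries, by subtracting the siRNA effect from that of shRNA. The test was past the threshold for 6 of 10 members, 5 lower and 1 higher, beside 34.8% of 17190 genes, 15.1% higher and 19.7% lower. The difference was -1 for ITGA2 (SE 0.24, adjusted p 0.0116), -0.94 for ITGB5 (SE 0.14, adjusted p 0.000895) and -0.78 for ITGA5 (SE 0.14, adjusted p 0.00279). It was -0.67 for ITGA3 (SE 0.14, adjusted p 0.00545) and -0.55 for ITGB4 (SE 0.14, adjusted p 0.0149). For ITGB6 it was 0.68 (SE 0.20, adjusted p 0.0268), and it was no longer past the threshold without siRNA control replicate 1 (0.43, adjusted p 0.103) or without shETS1 replicate 1 (0.60, adjusted p 0.106). ITGA6 (0.32, adjusted p 0.111), ITGAV (0.39), ITGB1 (-0.05) and ITGB8 (0.12, 95% interval -0.20 to 0.43) were not past it. ITGA6 was called in 6 of 18 alternatives (lowest adjusted p 0.0485, 0.39 without ETS1 siRNA replicate 1) and ITGAV in 2 (lowest adjusted p 0.0172, 0.64 without siRNA control replicate 2). Since the tables may differ in preparation, these differences cannot be told apart from that.

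The 16 other integrin subunits were mostly low. Of these, 9 were tested after siRNA, where ITGB3, an alternative beta chain for ITGAV, fell (19 and 15.1 CPM to 9.47 and 7.97 CPM, -0.97, SE 0.18, adjusted p 0.0496). ITGB3 shares 33.18% of its exon length with another gene on the same strand, and its count is uncertain. ITGA1, ITGA4, ITGB7, ITGA10, ITGAX, ITGA7, ITGB2 and ITGAE lay between -0.60 and 0.31 and were not past the threshold. After shRNA ITGA4, a chain best known from leukocytes, fell by 1.11 on the log2 scale (SE 0.09, adjusted p 1.99e-08, 37.9 and 39.5 CPM to 17.4 and 18.5 CPM). ITGA4 shares 26.4% of its exon length with CERKL on the opposite strand. ITGA7, a laminin-binding chain at 1.06 CPM in shCON, fell by 1.84 (SE 0.42, adjusted p 0.00129). ITGB7, ITGB3, ITGAD, ITGB2, ITGA10, ITGAE and ITGA1 were not past the threshold.

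Genes that work with the subunits were read from 9 further lists, to be set against the 60.6% of all genes called after shRNA, 29.7% higher and 30.9% lower. Of the integrin activators, 8 were tested, and after shRNA 1 rose and 4 fell with a median of -0.29, a number called near the background. FERMT1, the epithelial kindlin, fell by 0.60, RAP1A by 0.48, RAP1B by 0.29 and TLN1, the talin that switches integrins on, by 0.29, while FERMT2 rose by 0.33. Of the 4 inactivators, 3 fell and SHARPIN rose by 0.21. SHARPIN was not called with library size only, without shCON replicate 2 or without shETS1 replicate 1. DOK1 fell by 0.67, ITGB1BP1 by 0.66 and FLNA by 0.49 on the log2 scale. ITGB1BP1 shares 33.17% of its exon length with ASAP2 on the opposite strand.

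Focal adhesion scaffolds and kinases went both ways after shRNA, with 12 of 20 tested lower and 6 higher (median -0.34), beside 30.9% of all genes lower and 29.7% higher. PARVB fell by 1.06, ACTN1 by 0.79 and PXN, the paxillin scaffold, by 0.76, while PTK2B rose by 1.2 and TES by 0.68. PXN shares 23.71% of its exon length with PXN-AS1 on the opposite strand. After siRNA 1 of 21 was called, CRK (-0.60, SE 0.14, adjusted p 0.0869). Of the 5 hemidesmosome partners 3 rose after shRNA, led by DST (702 and 699 CPM to 1460 and 1620 CPM, 1.13, SE 0.09, adjusted p 7.04e-09), followed by ERBB2IP (0.28) and CD151 (0.23), and PLEC fell by 0.21. With library size only 2 of these rose and 2 fell. COL17A1 was not past the threshold (-0.15). Of 8 tetraspanins and membrane partners, 4 rose, among them CD9 (0.72) and CD82 (0.48), and 2 fell, BSG by 0.42 and CD81 by 0.17, with a median of 0.10 that was -0.03 with library size only. Without shCON replicate 1, 2 of these 8 rose and 1 fell.

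The matrix ligands of these receptors gave the most one-sided list. After shRNA 9 of 10 tested laminin and basement membrane genes fell and none rose, with a median of -0.47, beside 30.9% of all genes lower. COL4A1, a type IV collagen chain, fell from 176 and 154 CPM to 90.1 and 84 CPM (-0.92, SE 0.08, adjusted p 4.28e-08). LAMB1 fell by 0.82, COL4A2 by 0.80, LAMB3 by 0.61 and LAMA3, a chain of the laminin that hemidesmosomes bind, by 0.47 on the log2 scale. LAMA5 was not past the threshold (-0.10). The number lower was 7 without shCON replicate 1 and 10 with library size only. After siRNA 0 of 10 was called by edgeR (2 at an unadjusted p under 0.05) and 0 by DESeq2, with values between -0.18 and 0.49. The count at an unadjusted p has no share of all genes beside it. Of 10 collagen, fibronectin and RGD ligands tested after shRNA, 3 rose (COL1A2 by 2.00, MFGE8 by 1.18, COL1A1 by 0.96) and 3 fell (SPP1 by 0.84, TNC by 0.71, THBS1 by 0.70), close to the 29.7% and 30.9% of all genes. Their median of 0.10 was -0.22 without shETS1 replicate 2, and 5 rose without shETS1 replicate 1. THBS1, which binds several integrins, was also called after siRNA (5910 and 5090 CPM to 3210 and 2960 CPM, -0.83, SE 0.13, adjusted p 0.0273), and COL1A1 rose there too (0.73, SE 0.14, adjusted p 0.0496). Counts of SPP1 were low, at 45 and 52 in shCON and 29 and 22 in shETS1.

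Of the 7 genes TGFB1, TGFB2, TGFB3, LTBP1, LTBP2, LTBP3 and LRRC32, 3 rose and 2 fell after shRNA, beside 60.6% of all genes called. Binding of each product to an ITGAV receptor was not measured. TGFB1 fell by 1.11, from 32.4 and 31 CPM to 13.9 and 15.4 CPM (SE 0.10, adjusted p 4.58e-08), and LTBP1 fell by 0.86, while TGFB3 rose by 1.16, LRRC32 by 1.75 and LTBP2 by 0.51. LRRC32 was low, at 14 and 15 counts in shCON and 35 and 58 in shETS1 (SE 0.34). TGFB3 had means of 3.6 CPM in shCON and 8.08 CPM in shETS1. After siRNA TGFB2 was called (-0.53, SE 0.12, adjusted p 0.0923), and 22.66% of its exon length is shared with a gene on the same strand. Of 7 integrin traffic genes 1 rose and 3 fell after shRNA, with DAB2 falling by 1.76, NUMB by 0.67 and RAB25 by 0.34 and SNX17 rising by 0.29, a number near that background. Apart from the 5 genes named here for siRNA (ITGB3, CRK, THBS1, COL1A1 and TGFB2), no gene outside the members was called after siRNA by edgeR among the lists, and without siRNA control replicate 1 none of these 5 was called. For the lists with 0 calls after siRNA, the genes at an unadjusted p under 0.05 and those called by DESeq2 were 0 and 0 for activators, 1 and 0 for inactivators, 1 and 1 for hemidesmosome partners, 3 and 2 for tetraspanins and membrane partners, and 2 and 1 for traffic. No share of all genes is given beside these counts, so that they have no background to be set against.

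**Figure D5:**
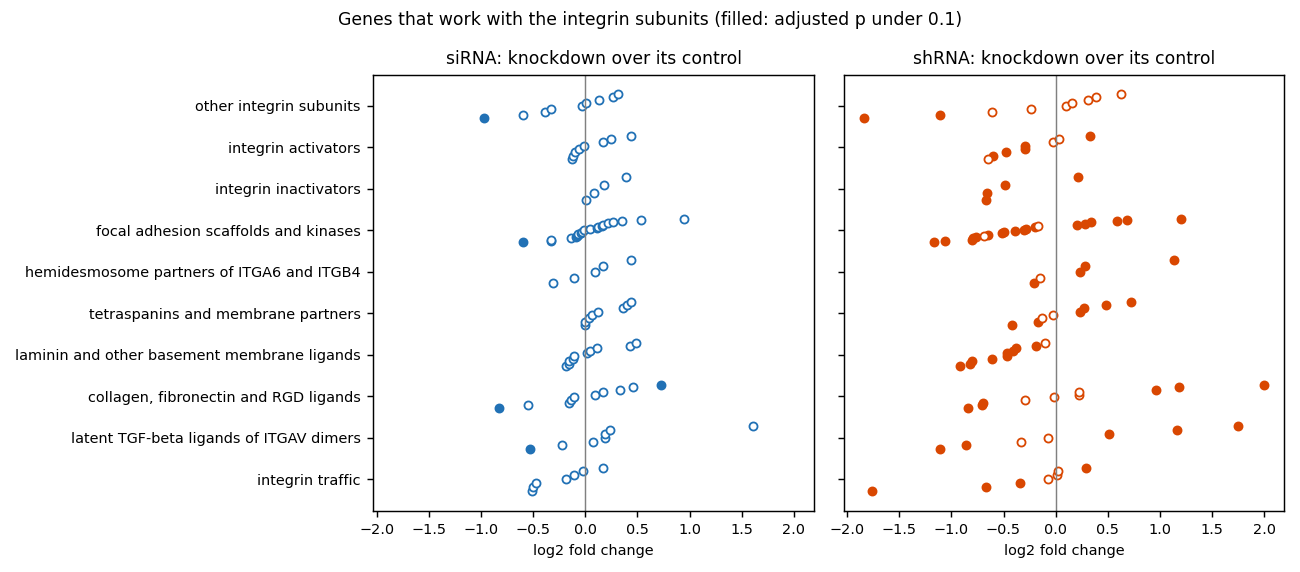
Log2 fold change (horizontal axis) of each tested gene in the other integrin subunits and the 9 lists of partner genes, 1 point a gene, after siRNA (left) and shRNA (right), filled where the adjusted p was under 0.1. Filled points are 5 on the left, and on the right 9 of 10 laminin and basement membrane genes are filled below 0.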

How the data were processed

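RNA of SCC25 cells was sequenced as short single-end TruSeq reads. The authors mapped them with TopHat2 2.1.1 and Bowtie2 2.2.6 to GRCh37 and counted them with featureCounts 1.5.0, versions as in the submitters' processing notes. The deposited values are raw counts per gene symbol, 1 table per experiment, with no normalization, and the use of strand and of reads with several matches is not given in the sources used here. Overlapping genes can therefore share reads. Totals of 15954616 to 25953213 counts per library set the counting precision.

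Each ETS1 knockdown was tested against the matching control with edgeR 4.0.16 in R 4.3.3 (quasi-likelihood F-test, two-sided), with TMM scaling, filterByExpr and Benjamini-Hochberg adjustment over all genes tested at a threshold of 0.1. With 2 libraries a group, an exact permutation test could not reach the threshold. The common dispersion was 0.0192 for siRNA and 0.00402 for shRNA libraries. The interaction used all 8 libraries. CPM and RPKM were scaled within each table, with exon lengths from GENCODE v44 on GRCh37. Named genes were all members, ETS1, every other integrin subunit that passed the filter, and up to 5 called genes of each further list by adjusted p. COL17A1, LAMA5, SPP1 and CD81 were named after their values were seen. Members and lists were chosen with earlier results of these data known. A gene of the inactivator list is not reported here and was taken out of it. The fits were tested on simulated data in which 200 genes were changed by 1 on the log2 scale. Of those that were tested, 65.1% were called for siRNA, 80.6% for shRNA and 55.2% for the difference. Unchanged genes made up 10.2%, 8.14% and 8.55% of the calls. Alternatives were DESeq2 1.42.0, other scalings, filters, thresholds and fits, and leaving out each library. A count of tyrosine motifs in the beta chains was not made.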

Additional observations from a re-analysis of the deposited data

Results flagged for a closer look

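For 6 subunits the change differed between the experiments by the test of the difference itself. That test subtracted the siRNA effect from that of shRNA in edgeR, and 34.8% of 17190 genes were past the threshold in it. The log2 difference was -1 for ITGA2, -0.94 for ITGB5, -0.78 for ITGA5, -0.67 for ITGA3, -0.55 for ITGB4 and 0.68 for ITGB6. For ITGA2 both experiments gave a value below 0 (-0.67 after siRNA and -1.65 after shRNA). For ITGA5 (0.40 and -0.37), ITGB4 (0.24 and -0.29) and ITGB5 (0.25 and -0.68) the siRNA value was above 0 and not past the threshold, and the shRNA value was below 0 and past it. ITGA3 (-0.01 and -0.66) was past the threshold after shRNA and ITGB6 (-0.71 and -0.01) after siRNA. The siRNA call of ITGB6 was lost with the replicate block (adjusted p 0.246), without siRNA control replicate 1 (-0.47, adjusted p 0.715) and at an adjusted p under 0.05, and its difference was not past the threshold without siRNA control replicate 1 or without shETS1 replicate 1. The kind of knockdown, its duration and any difference in preparation between the tables cannot be told apart.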

How the results depend on the processing

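No called change of a member changed its sign under the alternatives run. After siRNA, 1 member and 502 genes were called. These numbers were 4 and 1466 without a filter on low counts, 3 and 766 with DESeq2, 4 and 2166 with all 8 libraries in one fit, and 0 and 190 at an adjusted p under 0.05 in edgeR, where 5 members had an unadjusted p under 0.05. Protein-coding genes with at least 1 TPM gave 794 genes. Leaving out a library gave 0 to 3 members and 72 to 1478 genes, with the lowest numbers without siRNA control replicate 1. A lone library is then assumed to vary like the others. With the replicate block 0 members (3 at an unadjusted p under 0.05) and 97 genes were called. The counts of members at an unadjusted p have no share of all genes beside them. Deviations of same-numbered replicates had a correlation of -0.54 in the siRNA and -0.20 in the shRNA libraries. These values rest on 2 libraries a group and cannot tell whether the numbers pair the samples. With the pairing crossed, chosen after seeing the data, 4 members and 3238 genes were called. After shRNA and for the difference, the numbers of members and genes called stayed within 1.5 times under every alternative run. With the longest transcript as the length, 5 members kept their rank in siRNA control, 4 in ETS1 siRNA, 1 in shCON and 3 in shETS1. All 10 kept it with TPM. The cause of these shifts was not tested.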
